A study of Kluyveromyces marxianus and Saccharomyces cerevisiae with 12 samples.

Results

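The loci described here are 259 short, abundant loci of *Saccharomyces cerevisiae* EC1118, a commercial wine yeast, out of 6461 loci listed for it and 11780 loci listed for both yeasts of the study. A member carries an EC1118 locus tag, spans less than 400 nt, has a mean FPKM of at least 100 at 6 h or at 20 h, and has a ratio of means (20 h over 6 h, 1 added to each) strictly between 1/8 and 8. FPKM counts fragments per kilobase of transcript and per unit of sequencing depth. Of 6017 tags, 902 were shorter than 400 nt and 279 of these reached 100 FPKM. Of the 279, 11 were left out for a ratio of 8 or more and 9 for a ratio of 1/8 or less, and the 259 that remained were 4.30% of the tags. A separate exclusion of EC1118_1M3_3642g and of the end of contig 1O4 removed 0 further loci. The levels at both times and their ratio chose the members, so both are given as description and nothing is inferred from them.

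The *S. cerevisiae* cultures were sampled at 6 h and at 20 h of an alcoholic fermentation, 3 samples at each time. They grew at 25 °C in a medium with sugars at 230 g/l, assimilable nitrogen at 200 mg/l and phytosterols at 10 mg/l. The other yeast, *Kluyveromyces marxianus* IWBT Y855, was sampled at 6 h and 36 h in the same medium, also with 3 samples at each time. The *S. cerevisiae* samples share 1 unmodified strain, and they differ in fermentation time alone as far as the labels go. Whether the replicates were separate cultures is not stated, so any SD or p-value below may reflect technical differences alone.

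Short protein-coding genes of budding yeast include many ribosomal proteins, the histones, the small subunits of respiratory chain complexes, and small stress, metal-binding and membrane proteins. Ribosomal protein genes are known to be expressed strongly in growing cells and less as growth slows, whereas many stress and respiratory genes follow the opposite course. To compute FPKM, Cufflinks divides by an effective length, which for a short transcript is well under its real length because few fragments of the library's size can lie wholly within it.

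None of the 259 tags is paired with a gene name in the sources used here, so no member is given a name or a role. The annotation at hand is that of the laboratory strain S288C, with another system of identifiers. There, 628 of 6021 protein genes span less than 400 nt. Among those 628 are 15 cytosolic ribosomal proteins, 6 histones, 16 small respiratory subunits, 7 small stress proteins and 9 metal-binding, redox or small membrane proteins of the lists used. Which of the 259 tags correspond to them was not analysed here. Spans were a multiple of 3 for 252 of the 259 members and for 5830 of all 6017 tags, so nearly all are coding lengths, without UTRs. The other 7 members had spans that are no multiple of 3, among them EC1118_1P2_3235g with 362 nt.

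The fragments behind each value were recovered from the deposited confidence bounds. Totals ran from 1.51 to 21.6 M (M, 1000000 fragments). The lowest is that of 6 h replicate 3, where fragments came from 1 of the 3 tables of FPKM, so its fragments and span-based levels cover less data than its FPKM. A member held 17 to 53051 fragments over the 6 samples, with a median of 1669. At least 30 fragments in every sample were found for 157 members. Fewer than 10 fragments were found for 3, 3 and 29 members in the replicates at 6 h and for 5, 5 and 12 in those at 20 h.

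Spans ran from 132 to 399 nt, with a median of 315 nt. Over the 6 samples the mean FPKM of a member ran from 61.8 to 17728, with a median of 281. Above 500 FPKM stood 91 members, and 47 of these were above 1000 FPKM. At both times 192 members reached 100 FPKM, 23 reached it at 6 h alone and 44 at 20 h alone. The members took 18.5% ± 0.213 of the summed FPKM of all loci at 6 h and 14.6% ± 0.535 at 20 h (SD, n = 3 each). Their share of the recovered fragments was far smaller, at 2.33% to 2.44% at 6 h and 1.31% to 1.68% at 20 h.

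FPKM and fragments are linked by the length that each FPKM was divided by. That length can be worked out from both, and it is given here as a percentage of the locus span, with the median of loci of 1000 to 2000 nt set to 100%. Among members under 150 nt the median implied length was 0.807% of the span. It was 7.80% at 150 to 199 nt, 17.2% at 200 to 249 nt and 29.1% at 250 to 299 nt. It reached 39.4% at 300 to 349 nt and 50.2% at 350 to 399 nt. The shorter the locus, the smaller was the share of its own span by which its fragments were divided.

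**Figure D1:**
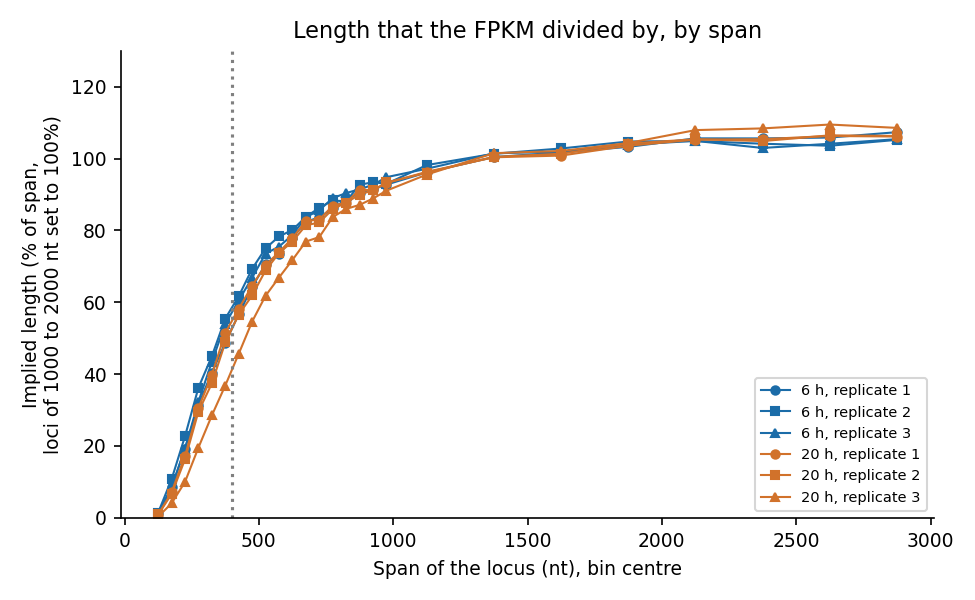
Median implied length of the *S. cerevisiae* loci, in percent of the span (vertical axis), against the span in nt (horizontal axis, bin centre), with 1 line per sample and the 400 nt limit dotted. The lines fall steeply below the limit, and 20 h replicate 3 lies lowest there.

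A second level without that division was computed for each member. This span-based level is fragments per nt of span, scaled so that loci of 1000 to 2000 nt have the same level as in FPKM. It leaves out any correction for fragments that cannot lie wholly within a short span, so it is given beside FPKM and not in its place. The median ratio of FPKM to the span-based level was 124 in members under 150 nt, 12.8 at 150 to 199 nt, 5.82 at 200 to 249 nt and 1.99 at 350 to 399 nt.

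On the span-based level 123 of the 259 members, or 47.5%, reached 100 at one of the times, and the median member stood at 73.9. None of the 4 members under 150 nt reached 100, against 7 of 19 members of 150 to 199 nt and 44 of 74 members of 350 to 399 nt. Over all short tags, 30.9% reached 100 in FPKM and 15.3% on the span-based level. Over the 5115 tags of 400 nt or more, 32.4% reached 100 in FPKM and 29.5% on the span-based level. Short and long tags were thus abundant at a similar rate in FPKM and at different rates on the span-based level, a comparison of counts with no test.

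**Figure D2:**
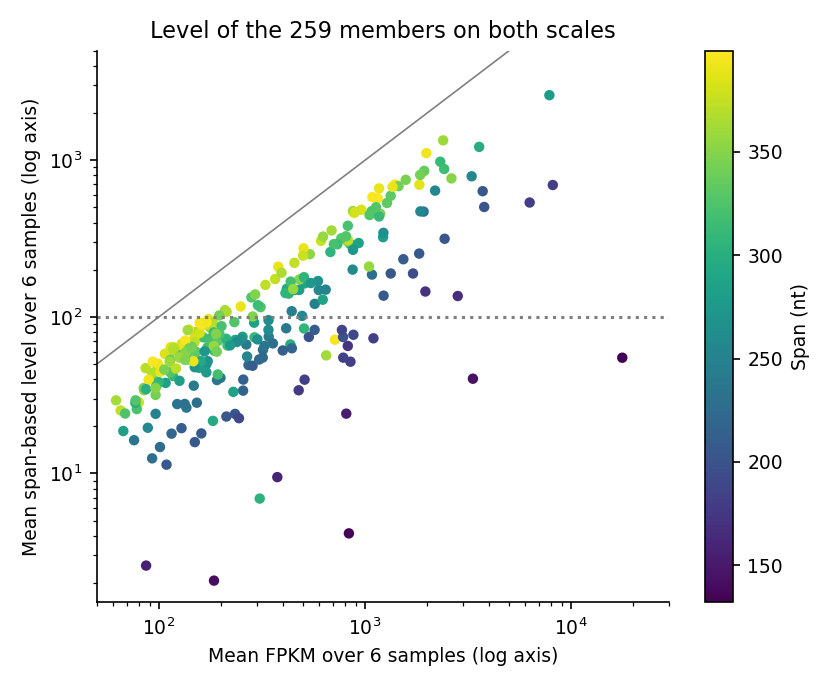
Mean span-based level over the 6 samples (vertical log axis) against mean FPKM over the same samples (horizontal log axis), with 1 point per member, coloured by span. The diagonal marks equal values and the dotted line a span-based level of 100. Every member lies below the diagonal, and the shortest members lie farthest from it.

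EC1118_1E8_0716g, on chromosome V at 107896 to 108027 of its contig, spans 132 nt and had the highest mean FPKM of the members. Its FPKM was 20646, 22251 and 27058 in the samples at 6 h and 16436, 11557 and 8420 in those at 20 h. The 6 h samples were all above the 20 h samples. Those values rested on 570 fragments in all, 285, 168 and 18 at 6 h and 55, 33 and 12 at 20 h. Its implied length was 0.309% of the span, and on the span-based level it ranked 181 of the 259. In 1 table of 20 h replicate 3, a single fragment of this locus was listed as 3993 FPKM, where a fragment of a locus of 1000 to 2000 nt stood for a median of 0.547 FPKM. Its FPKM thus rested on few fragments and a very small divisor.

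EC1118_1K5_1431g, on chromosome XI at 249897 to 250175 of its contig, spans 279 nt and was the best supported of the abundant members, with 53051 fragments. Its FPKM was 10750, 10088 and 12377 at 6 h and 5202, 4351 and 4329 at 20 h. It ranked 3 in FPKM and 1 on the span-based level, where it stood at 3260, 3873 and 4716 at 6 h and 1726, 1329 and 705 at 20 h. On both scales every 6 h sample was above every 20 h sample.

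EC1118_1M3_4566g, of 180 nt on chromosome XIII, ranked 2 in FPKM and 14 on the span-based level. Its FPKM was 7129, 10616 and 12404 at 6 h and 4573, 6250 and 7962 at 20 h, and the times overlapped. EC1118_1F14_1299g, of 180 nt on chromosome VI, stood at 14300, 9688 and 8021 FPKM at 6 h and at 1328, 2219 and 2225 FPKM at 20 h. EC1118_1O4_3862g, of 204 nt on chromosome XV, had a similar course, with 7844, 6015 and 5095 FPKM at 6 h and 978, 1274 and 1136 FPKM at 20 h. In both of these the 2 times lay far apart, with log2 ratios of -2.47 and -2.48.

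EC1118_1D0_8449g, of 201 nt on chromosome IV, had 4978, 5051 and 6171 FPKM at 6 h and 1846, 2369 and 2313 FPKM at 20 h. EC1118_1N18_0793g, of 297 nt on chromosome XIV, went the other way in its means. It had 2469, 3434 and 2610 FPKM at 6 h and 2978, 3931 and 6059 FPKM at 20 h, and the times overlapped. It ranked 7 in FPKM and 3 on the span-based level.

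EC1118_1B15_2278g, of 258 nt on chromosome II, had 1976, 2887 and 2661 FPKM at 6 h and 3387, 3701 and 5143 FPKM at 20 h, without overlap. On the span-based level its times did overlap, with 525, 878 and 807 at 6 h and 884, 904 and 738 at 20 h. EC1118_1D0_5567g, of 168 nt on chromosome IV, had 3554, 3021 and 3032 FPKM at 6 h and 1539, 2450 and 3314 FPKM at 20 h, with 1 sample at 20 h inside the 6 h range. The last of the 10 highest, EC1118_1B15_2795g, spans 144 nt and ranked 8 in FPKM but 209 on the span-based level. It shares 130 nt with EC1118_1B15_2784g, itself a member. Of the 10 highest in FPKM, 3 were also among the 10 highest on the span-based level.

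**Figure D3:**
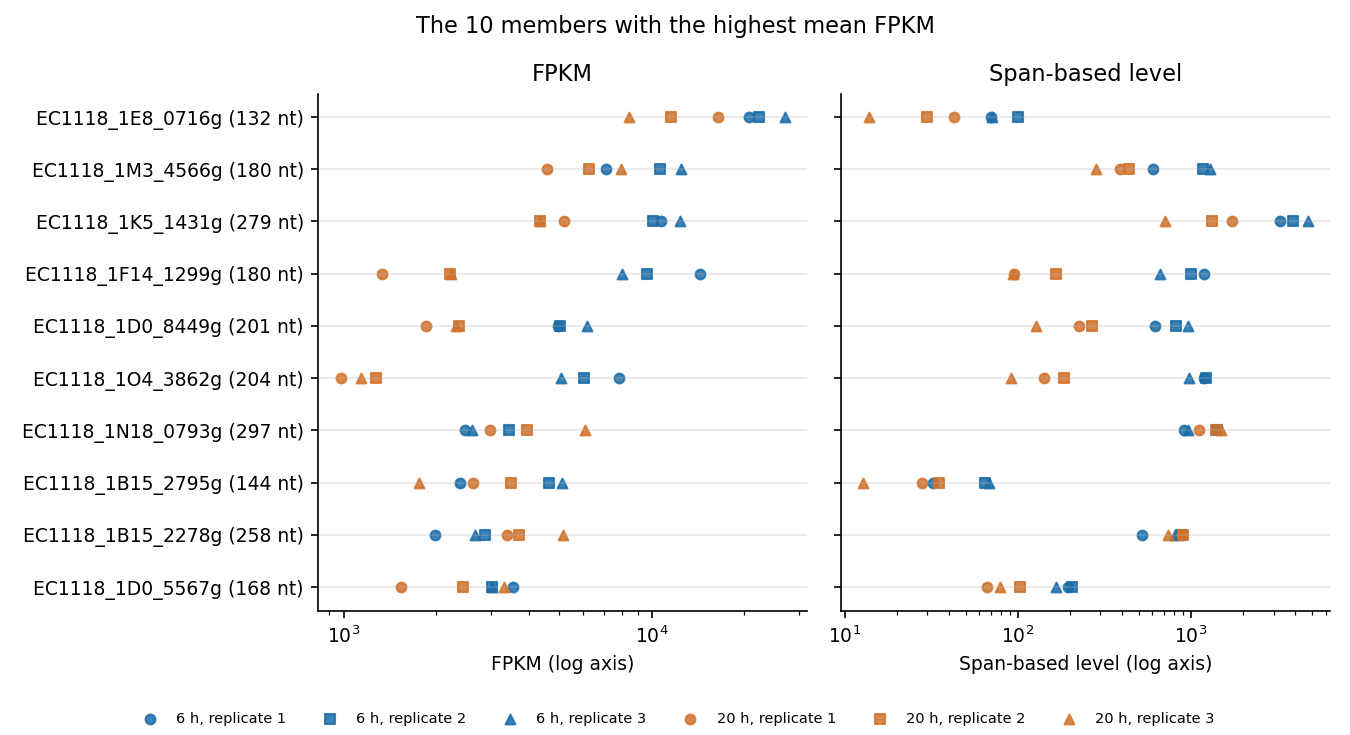
FPKM (left) and span-based level (right), both on log axes, of the 10 members with the highest mean FPKM, with 1 symbol per sample, blue for 6 h and orange for 20 h. EC1118_1E8_0716g leads in FPKM and EC1118_1K5_1431g on the span-based level.

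Members that were high on the span-based level without being among the 10 highest in FPKM were mostly longer, and the following pair was picked after its values were seen. EC1118_1G1_0870g, of 360 nt on chromosome VII, had 3392, 3155 and 4031 FPKM at 6 h and 1069, 1047 and 1669 FPKM at 20 h from 36009 fragments. EC1118_1B15_0177g, of 393 nt on chromosome II, had 3186, 3303 and 3189 FPKM at 6 h and 650, 733 and 850 FPKM at 20 h from 35659 fragments. They ranked 14 and 17 in FPKM and 2 and 4 on the span-based level. In each the times did not overlap on either scale.

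Between the times the members went both ways. The log2 ratio of means (20 h over 6 h) had a median of 0.19, with 146 members above 0 and 113 below, and ran from -2.85 to 2.92 inside the limits of the rule. More than 2-fold higher at 20 h stood 75 members and more than 2-fold lower 52. Beyond 4-fold there were 17 higher and 13 lower. All samples of 20 h were above all of 6 h in 103 members and below in 64, where 45.3% and 23.6% of the 5712 loci tested did so.

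With limma on log2(FPKM + 1), fitted over those 5712 loci with Benjamini-Hochberg adjustment at 0.05, 92 members were higher at 20 h, 63 were lower and 104 did not pass. The background was 60.3% of all loci called, 39.7% higher and 20.6% lower. Since the rule used this contrast, no enrichment or depletion is read from the counts. The median fitted log2 change was 0.14 in the members, 0.30 over all loci tested and -0.05 over the 1552 tags of 400 nt or more with the same FPKM and ratio limits. In this fit the members' median minus that of all loci was -0.16 on the log2 scale. That difference was -0.0012 with no filter on low values, -0.17 with median scaling, -0.52 with limma-voom on the recovered fragments and 0.23 with quantile normalization, so the members' position against all loci also turned with the scaling.

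The sign of the members' median depended on the scale. After each sample was scaled to its median, which moved the median of all loci to 0.00, 73 members were higher and 87 lower, against 30.4% and 30.1% of all loci. The members' median log2 change was then -0.17. With limma-voom on the recovered fragments, 60 members were higher and 93 lower, against 37.3% and 26.3% of 5639 loci, and the members' median was -0.35. That fit uses no length, so it does not correct for differences in implied length between samples, given below. Quantile normalization gave 98 members higher and 59 lower, against 29.8% and 27.6% of all loci, with a median of 0.26 in the members and 0.02 over all loci.

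In the fit as deposited, with median scaling and with voom alike, 59 members were higher and 62 lower. The share of all tested loci called alike in these fits is not at hand, so nothing about the members against other loci is read from these counts. No member called in one direction in the first fit was called in the other by voom. On the span-based level 115 members had a ratio of means above 1 and 144 below. All 31 members whose ratio changed side were higher at 20 h in FPKM and lower at 20 h on the span-based level.

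**Figure D4:**
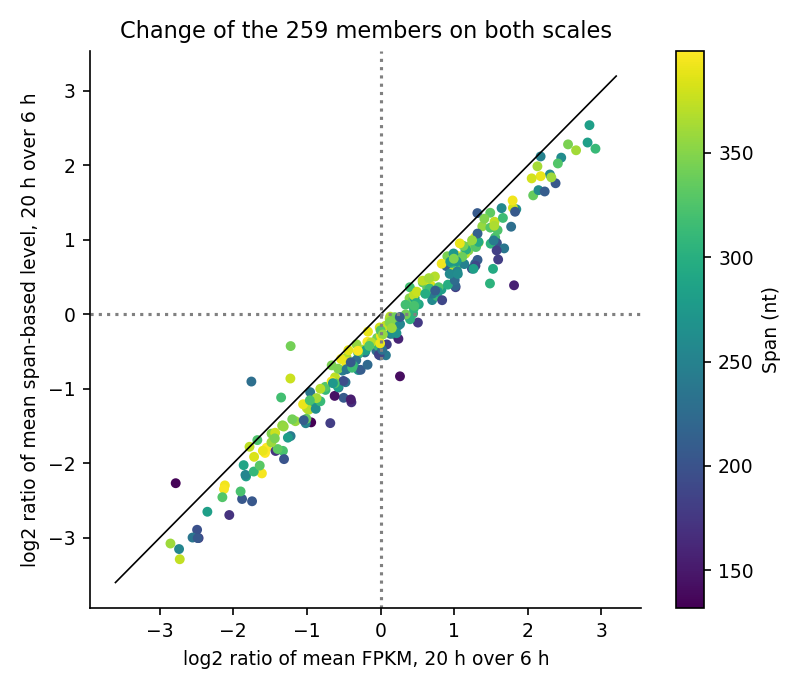
log2 ratio of the mean span-based level (vertical axis) against log2 ratio of mean FPKM (horizontal axis), both 20 h over 6 h, with 1 point per member, coloured by span. The solid line marks equal ratios. Most members lie below it, and the 31 that change side sit right of the vertical dotted line and below the horizontal one.

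The implied length itself differed between samples. It is computed from FPKM, which the rule used, and is given as a description with no test. Its median over the members was 36.9%, 41.2% and 38.7% of the span at 6 h and 36.5%, 35.3% and 24.9% at 20 h, or 39.0% ± 2.16 and 32.2% ± 6.39 (SD, n = 3 each). Over the members the times did not overlap. Over all 240 tags of 350 to 399 nt they did, with 48.7%, 55.5% and 54.0% at 6 h and 51.5%, 48.8% and 36.8% at 20 h. In the bin of all tags centred at 125 nt they overlapped as well. They did not over all tags of 150 to 199, 200 to 249, 250 to 299 or 300 to 349 nt. At 300 to 349 nt all tags had 40.4%, 45.0% and 43.4% at 6 h and 39.8%, 37.4% and 28.5% at 20 h. Among the members, replicate 3 at 20 h stood below the other 5 samples in every span class, with 4.01% at 150 to 199 nt, 19.1% at 250 to 299 nt and 39.0% at 350 to 399 nt.

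The same sample was the highest of its group in FPKM for 155 of the 259 members, but for 70 on the span-based level. Among the long abundant tags it was highest for 64.6% in FPKM and 55.3% on the span-based level. Without 20 h replicate 3 the limma fit gave 89 members higher and 70 lower, against 38% and 22.1% of 5713 loci. The median log2 change was then 0.03 in the members and 0.24 over all loci. The cause of the lower implied length in this library was not tested.

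At the upper end of the changes, EC1118_1M36_0045g, of 312 nt on chromosome XIII, had 5.76, 13.9 and 46.2 FPKM at 6 h and 189, 225 and 103 FPKM at 20 h. The times did not overlap, and the 6 h samples were spread widely. EC1118_1J11_2641g, of 282 nt on chromosome X, had 17.3, 7.18 and 22.6 FPKM at 6 h and 128, 108 and 120 FPKM at 20 h. Its total of 292 fragments was among the smaller ones.

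More abundant was EC1118_1D0_3169g, of 282 nt on chromosome IV, with 301, 299.6 and 313 FPKM at 6 h and 1754, 1506 and 3167 FPKM at 20 h. EC1118_1H13_1101g, of 345 nt on chromosome VIII, had 339, 371 and 327 FPKM at 6 h and 1536, 2270 and 2262 FPKM at 20 h. In both, the 6 h samples lay close together and well below the 20 h samples. EC1118_1P2_3235g and EC1118_1L7_1915g completed the 6 highest, with log2 ratios of 2.66 and 2.45.

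At the lower end, EC1118_1E8_2674g, of 360 nt on chromosome V, had 1176, 1475 and 1958 FPKM at 6 h and 159, 196 and 280 FPKM at 20 h. EC1118_1M3_2982g, of 255 nt on chromosome XIII, had 2798, 3415 and 3475 FPKM at 6 h and 570, 558 and 324 FPKM at 20 h. EC1118_1L7_1893g, of 237 nt on chromosome XII, had 3437, 3433 and 3001 FPKM at 6 h and 467, 646 and 567 FPKM at 20 h. They rested on 12187, 9266 and 9403 fragments, and all 3 had every 6 h sample far above every 20 h sample.

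EC1118_1B15_3224g, of 198 nt on chromosome II, had a log2 ratio of -2.49 from 1347 fragments. EC1118_1L7_1420g, of 135 nt, had 1077, 1174 and 2125 FPKM at 6 h and 634 FPKM in 20 h replicate 1, and was listed at 0 in the other 20 h samples. These values came from 45 fragments, with 3 at 20 h. EC1118_1G1_4555g, with 129, 130 and 81.8 FPKM at 6 h and 29.2, 19.8 and 0 FPKM at 20 h, shares 266 nt with a longer locus. The 6 rises and 6 falls named here passed in the same direction with median scaling and with voom. The call of EC1118_1L7_1420g was lost with no filter on low values and when any 1 sample other than 20 h replicate 1 was left out, with adjusted p up to 0.0941 by limma. That of EC1118_1G1_4555g was lost with no filter, with a pseudocount of 0.1 and when any 1 of the 6 h samples was left out, with adjusted p up to 0.0855 by limma.

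**Figure D5:**
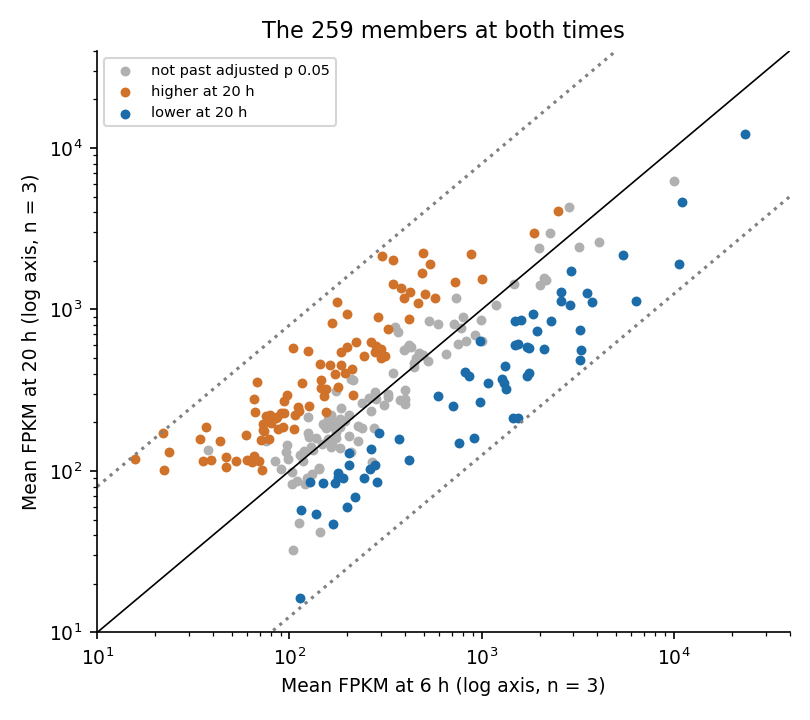
Mean FPKM at 20 h against mean FPKM at 6 h (log axes, n = 3 each), with 1 point per member, coloured by the limma call. The solid line marks equal means and the dotted lines the 8-fold limits of the rule. At the highest levels blue points, lower at 20 h, prevail.

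By level, the 47 members at 1000 FPKM or more held more lower than higher calls, and the members below that held more higher calls. Higher calls also prevailed over all 5712 loci tested, at any level, with 39.7% higher and 20.6% lower. Shares of all loci by level are not at hand. At 1000 FPKM or more, 10 were called higher at 20 h and 26 lower, and the median log2 ratio was -0.88. From 300 to 1000 FPKM, 31 of 77 were higher and 15 lower, with a median log2 ratio of 0.46. From 150 to 300 FPKM, 21 of 66 were higher and 10 lower, with a median log2 ratio of 0.20. Under 150 FPKM, 30 of 69 were higher and 12 lower, with a median log2 ratio of 0.45. Below 1000 FPKM these values thus followed no order with the level. The 26 lower calls of the upper tier were also made with median scaling and with voom, as were 5 of its 10 higher calls. The 10 members highest within each sample took 38.5%, 38.3% and 40.9% of the members' summed FPKM at 6 h. At 20 h they took 31.4%, 27.8% and 27.3%. These 10 were picked anew in each sample, so they are not the fixed 10 with the highest mean FPKM. The members were picked on these same levels, so the pattern is a description of the list.

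Closest to no change were EC1118_1J11_0331g and EC1118_1E8_1882g. EC1118_1J11_0331g had 319.9, 248 and 274 FPKM at 6 h and 233, 266 and 343 FPKM at 20 h. EC1118_1E8_1882g had 157, 165 and 199 FPKM at 6 h and 168, 166 and 189 FPKM at 20 h. For both the ranges of the times overlapped. EC1118_1P2_0408g had nearly equal means too, but its 20 h samples were 91.2, 73.8 and 274 FPKM, and it shares 368 nt with a longer locus.

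Spread between samples of 1 time was not part of the rule. Its SD on log2(FPKM + 1), pooled over the times, had a median of 0.30 in the members and 0.23 in the 1552 long abundant tags. By span class the median SD was 1.98 under 150 nt, 0.41 at 150 to 199 nt, 0.39 at 200 to 249 nt and 0.26 to 0.30 above. Below 0.2 stood 52 members, 158 were from 0.2 to 0.5, 37 from 0.5 to 1 and 12 at 1 or more. The class under 150 nt holds 4 members, with SDs of 0.37, 0.55, 3.41 and 3.82.

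Of the 4 largest spreads, 3 belonged to loci that overlap another one. EC1118_1D0_3895g had an SD of 5.22. It was listed at 645, 0 and 0 FPKM at 6 h and at 61.4, 0 and 1037 FPKM at 20 h, and it shares 203 nt with EC1118_1D0_3906g, also a member. That neighbour had 1212, 2055 and 3066 FPKM at 6 h and 1229, 1691 and 1758 FPKM at 20 h. EC1118_1D0_2124g, with an SD of 4.42, had 70.3, 1617 and 1334 FPKM at 6 h and 1049, 857 and 0 FPKM at 20 h. It shares 257 nt with a locus of 1176 nt. EC1118_1L7_0617g, with an SD of 3.99, shares 303 nt with a locus of 1116 nt.

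In all, 45 members, or 17.4%, overlapped at least 1 other locus, against 42.8% of all short tags and 16.6% of all tags. The shared stretch ran from 2 to 368 nt with a median of 229 nt, and in 6 members the other locus was a member too. The median SD was 0.43 in the 45 and 0.28 in the other members. Of the 9 members listed at 0 in at least 1 sample, 7 were overlapping loci. The files give no strand, so reads within a shared stretch cannot be told apart between a member and the other locus. Values are thus uncertain where the stretch is long, as with 368 nt in EC1118_1P2_0408g, and less so where it is short, as with 2 nt in EC1118_1I12_1310g. Of the 45, 8 were called higher and 12 lower, where 39.7% and 20.6% of all 5712 loci tested were. The shares over all overlapping loci are not at hand, so nothing is read from these counts.

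The tables of 1 sample did not always give a member the same level. In 6 h replicate 1, EC1118_1M3_4566g stood between 2766 and 4468 FPKM in 8 tables and between 11590 and 13151 FPKM in the other 5. In 20 h replicate 2 it stood between 1977 and 2062 FPKM in 3 tables and between 9849 and 11288 FPKM in the other 3. In 20 h replicate 1 it had 2150 to 2653 FPKM in 3 tables and 11160 FPKM in 1. Its sample means average these sets, which were picked out after the values were seen. EC1118_1E8_0716g ran from 0 to 52724 FPKM over the 13 tables of 6 h replicate 1.

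The members lay on all 16 chromosomes, read from the letter of the contig in the tag. Chromosome IV held the most, 42, followed by XII with 29 and VII with 23. As a share of a chromosome's tags they ran from 1.83% on IX to 7.14% on V. Next to another member in tag order stood 37 members, or 14.3%.

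At the limits of the rule, EC1118_1K5_2355g, with 101.0 FPKM at 20 h, was just inside and EC1118_1C17_1453g, with 99.1 FPKM at 6 h, just outside. EC1118_1D0_4962g and EC1118_1B15_1266g, both of 399 nt, were the longest members, and EC1118_1L10_1915g and EC1118_1J11_0881g, both of 402 nt, the nearest longer loci. EC1118_1L10_1915g stood at 11758 FPKM at 6 h, above all members but 1. The ratios nearest 8 were 7.56 inside for EC1118_1M36_0045g and 8.18 outside for EC1118_1C17_1684g. Those nearest 1/8 were 0.138 inside for EC1118_1E8_2674g and 0.124 outside for EC1118_1H21_0419g.

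In *K. marxianus* 588 of 5319 loci were shorter than 400 nt, and 217 of them, or 36.9%, reached 100 FPKM in a group, as did 30.1% of the longer loci. On the span-based level 133 of the 217 reached 100. Their median implied length was 37.4%, 33.2% and 48.6% of the span at 6 h and 23.4%, 39.5% and 38.9% at 36 h, and here too 1 late sample lay below the rest. For 6 h replicate 2 of this yeast, fragments came from 3 of the 7 tables of FPKM. Its fragments and span-based levels thus cover less data than its FPKM. A RefSeq table of assembly Kmar_1.0 gave a symbol to 176 of the 217. These include 16 cytosolic ribosomal proteins, 5 histones, 14 small respiratory subunits, 3 small stress proteins and 4 metal-binding, redox or small membrane proteins. CCW12, a cell wall mannoprotein, RPS28A, a protein of the small ribosomal subunit, and RPL38, one of the large subunit, were among the highest. No correspondence between these loci and the *S. cerevisiae* tags was drawn.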

How the data were processed

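The authors deposited 35 Cufflinks gene-tracking tables of FPKM for *S. cerevisiae* and 32 for *K. marxianus*, per the file headers, 3 to 13 per sample. Tools listed in the submitters' processing notes, with no role, are Cuffdiff 2.2.1.5, TopHat2 2.0.8, FastQC 0.10.1, Cufflinks 2.2.1.2 and Trim Galore 0.4.3.1. The genome build was not given in the sources used here. Libraries were made with the TruSeq V2 kit from total RNA, per the labels' protocols. How the tables of a sample differ is not stated. They were averaged to 1 value per locus and sample, with values not marked OK as missing. Coordinates are those of the tables.

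Fragments were computed as the square of 2 times the FPKM over the distance to the upper bound, in tables where most low values came out whole (below 5.5, tolerance 0.02). Loci with a mean of at least 1 FPKM were tested on log2(FPKM + 1) by limma 3.58.1 (R 4.3.3), trend on, a scale that understates the change of low loci. The steps were tested on simulated data. The members and lists were chosen with earlier results of these data known. Loci named are the 10 highest, the 6 highest and 6 lowest changes, the 3 nearest 0, the 4 with the largest spread, the shortest and longest, those at each limit and some that overlap another locus. Planned gene lists could not be applied to tags without names. Alternatives were other pseudocounts, filters, limits, scalings, ways of combining tables, no trend, voom, a replicate block and leaving out each replicate; the span-based level was added after seeing the data.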

Additional observations from a re-analysis of the deposited data

How the results depend on the processing

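The 259 members became 123 when the 100 limit was applied to the span-based level, an alternative chosen after seeing the data; other limits gave 183 to 328. The 92 higher calls became 60 with voom on recovered fragments. The members' median log2 change of 0.14 became -0.17 with median scaling and -0.35 with voom. Leaving out 1 sample in turn gave 254 to 262 members, 83 to 94 higher and 57 to 70 lower calls and a median log2 change of 0.03 to 0.22. The share of summed FPKM was then 18.4% to 18.6% at 6 h and 14.4% to 14.9% at 20 h, and the median SD 0.24 to 0.32. With the replicate number as a block there were 93 higher and 66 lower calls. Same-numbered samples correlated at -0.124, 0.166 and 0.0318 in their deviations, and differently numbered ones at -0.188 to 0.103. With so few samples these values cannot decide whether the numbers pair them, and the labels do not say. Of the values of named members under the alternatives, 1036 kept their side of the threshold, 39 newly passed and 58 no longer passed. A further 3 changed direction, with a pass in the first fit or in the alternative. Changes of direction that passed in neither fit count among the 1036, as for EC1118_1D0_3895g (2.22 in the first fit, -0.66 with voom). The 3 were EC1118_1E8_3059g with the median over tables (-1.90), EC1118_1P2_1508g with the median over tables (0.89) and EC1118_1P2_3565g without 20 h replicate 3 (0.50, and -0.32 to 0.50 over the samples left out in turn). All 3 are overlapping loci, but so were 45 of the 71 members in this check, which took in every overlapping member by rule. Nothing about overlap is read from the 3, and the cause was not tested. Depth limits the shortest members most, down to 17 fragments in EC1118_1G1_0881g, and covers counting error only.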
